A study of Mus musculus with 12 samples.

Results

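The 36 genes described here encode enzymes and regulators of sterol and fatty acid synthesis, chosen by symbol as known or candidate targets of the sterol regulatory element-binding proteins (SREBPs). All 36 were found among the 12591 genes of the table by their Ensembl identifiers. They were sorted into 18 sterol enzymes, 12 genes of the fatty acid branch, 5 regulators and the sterol carrier Stard4. The RNA came from immortalized mouse embryonic fibroblasts (MEFs) of heterozygous PER2::LUC knock-in mice, which carry luciferase fused to the clock protein PER2, grown to confluence. Dishes received fresh medium for 24 h with 1 of 4 additions. CTL dishes received 3.3 mM HCl alone, and the same HCl was present with 10 μM deazaneplanocin A (DZ), 1 mM adenine or 1 mM S-adenosylmethionine (SAM). DZ inhibits AHCY, the enzyme that removes S-adenosylhomocysteine, SAM is the cellular methyl donor, and adenine is a product of its catabolism. Each group had 3 replicate dishes, which no source used here says came from separate animals or cultures, so errors and p-values measure the spread between dishes, which may be technical, and 3 treatments shared the same 3 CTL dishes.

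Cells make cholesterol from acetyl-CoA through mevalonate, farnesyl diphosphate, squalene and lanosterol, and they make fatty acids from the same acetyl-CoA through malonyl-CoA. Transcription of both branches is driven by SREBPs, with SREBP2 (Srebf2) acting mainly on sterol genes and SREBP1 (Srebf1) mainly on fatty acid genes. When sterols are scarce, SCAP carries the SREBP precursors from the endoplasmic reticulum to the Golgi, where proteases release the active factor. When sterols are plentiful, INSIG1 and INSIG2 hold SCAP back. SREBPs usually bind DNA beside other factors such as NF-Y and SP1.

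Promoters are shown because most members rose under both adenine and SAM, and the windows let their letters be compared. Sequences came from RefSeq (GRCm38.p6 table), where 29 of the 36 members had an entry, with 38 promoters in all, each of which matched GRCm39 exactly once. The entry covers 250 bases before the start of the gene and 50 after, and the 250 before it are printed here, 5′ to 3′ on the strand of the gene. The start is that of the RefSeq transcript, which can differ from the gene start given below from GENCODE, and all positions are on GRCm39. The sterol enzymes and fatty acid genes with the highest SAM response were taken, and Hmgcs1 was added after its motif had been found. Capitals mark the NF-Y box (CCAAT, or ATTGG on the other strand) in Idi1, Hsd17b7 and Acss2, the GC box (GGGCGG, or CCGCCC) bound by SP1 in Acat2, and the SREBP motif (TCACNCCAC) in Hmgcs1. Other matches were left in lower case, and Elovl6 held none.
Idi1 (chr13:8935392-8935641, plus strand): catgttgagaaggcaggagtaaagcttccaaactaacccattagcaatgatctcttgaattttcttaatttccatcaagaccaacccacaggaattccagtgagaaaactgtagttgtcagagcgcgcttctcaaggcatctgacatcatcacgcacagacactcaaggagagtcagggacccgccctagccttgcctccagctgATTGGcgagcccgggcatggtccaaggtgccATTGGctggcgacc
Acat2 (chr17:13179613-13179862, minus strand): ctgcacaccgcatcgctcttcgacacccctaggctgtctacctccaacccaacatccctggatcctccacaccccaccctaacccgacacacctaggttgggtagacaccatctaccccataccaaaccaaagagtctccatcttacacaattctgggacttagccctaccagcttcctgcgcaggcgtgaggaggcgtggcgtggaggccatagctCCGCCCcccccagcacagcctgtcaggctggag
Hsd17b7 (chr1:169796775-169797024, minus strand): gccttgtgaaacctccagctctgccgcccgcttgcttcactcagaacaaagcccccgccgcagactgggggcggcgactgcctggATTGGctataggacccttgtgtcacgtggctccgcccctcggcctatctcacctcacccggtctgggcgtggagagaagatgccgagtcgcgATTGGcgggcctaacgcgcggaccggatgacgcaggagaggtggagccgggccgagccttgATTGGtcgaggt
Hmgcs1 (chr13:120151637-120151886, plus strand): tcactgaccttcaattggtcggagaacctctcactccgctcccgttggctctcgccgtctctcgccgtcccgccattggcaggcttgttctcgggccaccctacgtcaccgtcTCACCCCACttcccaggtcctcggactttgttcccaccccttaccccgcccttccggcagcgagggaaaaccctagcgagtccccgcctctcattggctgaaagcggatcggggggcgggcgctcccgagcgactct
Acss2 (chr2:155359713-155359962, plus strand): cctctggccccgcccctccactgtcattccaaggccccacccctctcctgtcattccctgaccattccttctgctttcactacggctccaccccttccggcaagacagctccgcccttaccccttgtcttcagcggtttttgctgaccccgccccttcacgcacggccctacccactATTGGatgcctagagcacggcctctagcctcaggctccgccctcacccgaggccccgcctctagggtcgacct
Elovl6 (chr3:129325785-129326034, plus strand): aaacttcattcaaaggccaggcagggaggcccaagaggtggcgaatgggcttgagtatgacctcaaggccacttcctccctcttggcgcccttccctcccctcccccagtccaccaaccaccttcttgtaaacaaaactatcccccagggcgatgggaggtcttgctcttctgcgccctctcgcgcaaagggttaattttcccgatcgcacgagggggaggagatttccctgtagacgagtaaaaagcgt

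NF-Y boxes were common close to the starts of the sterol enzymes. On either strand of the whole window, in at least 1 promoter of the gene, it stood in 14 of the 15 sterol enzymes with an entry (93.3%), Acat2 being the exception, and in 6 of 9 genes of the fatty acid branch (66.7%). Of the 8821 genes of the table with an entry, 43.8% held it. Within the 100 bases before the start, it was present in 13 of the 15 sterol enzymes (86.7%). The share there was 44.4% in the fatty acid branch (4 of 9 genes) and 27.3% in the 8821 genes. In Idi1 the boxes began 45 and 14 bases before the start, and Mvk held 5 of them. The GC box was found in 93.3% of the sterol enzymes and 55.6% of the fatty acid branch against 71.4% of the 8821 genes. Within the 100 bases before the start it was in 53.3% of the sterol enzymes and 44.4% of the fatty acid branch, against 55.1% of the 8821 genes. TCACNCCAC, a spelling of the sterol regulatory element, was present in 1 of 29 members, Hmgcs1, 137 bases before the start, and in 1.3% of the 8821 genes. CACGTG, the E-box, was present in 6 of 29 members (20.7%) and in 12.1% of the 8821 genes. None of the 122 matches in the member promoters overlapped a match of another motif. A match of letters is no measure of binding.

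The libraries held between 45649534 and 56789090 reads on listed genes. No gene had fewer than 46 reads in any library, a floor that follows from the authors' filter at 1 CPM in all libraries. Values are log2 CPM, the log2 of reads scaled to a common, normalized library size, and a call means an adjusted p under 0.01 in limma with Benjamini-Hochberg adjustment over all 12591 genes. Fibroblast markers were abundant, with 7 of 8 listed in the table and Col1a1 at a mean of 11.68 in CTL. Their summed level was 21830 to 22270 CPM in CTL, 27650 to 28240 under DZ, 24190 to 26500 under adenine and 15810 to 17180 under SAM. Fn1, the most abundant of them in CTL (13.56), fell by 1.58 under SAM. All others in the table were called higher under SAM, namely Col1a1 (0.31), Col1a2 (0.17), Col3a1 (1.31), Vim (0.43), Pdgfrb (0.39) and Thy1 (0.44). Under adenine Col3a1 rose by 1.99 and Fn1 fell by 0.43. Listed markers of epithelium, endothelium and hepatocytes were not in the table. Of 8 adipocyte markers, Fabp4 and Pparg were present, and their summed level was 9.78 to 10.0 CPM in CTL, 12.8 to 14.8 under DZ, 7.64 to 8.76 under adenine and 10.4 to 12.3 under SAM, with Adipoq, Lep and Plin1 not in the table. Fabp4 rose by 1.03, 0.59 and 1.42 under DZ, adenine and SAM, whereas Pparg fell under adenine (-0.59) and SAM (-0.43) and was not called under DZ (0.26). Of 8 leukocyte markers, Cd68 alone was present and, like most members, was higher under adenine and SAM, at 2.99 to 3.96 CPM in CTL, 2.70 to 3.75 under DZ, 10.8 to 12.3 under adenine and 15.5 to 17.6 under SAM. The part of these cells in the results was not tested, and in bulk RNA fewer cells of a type and less RNA per cell cannot be told apart. SAM replicate 3 stood apart from the other SAM libraries, since the chi-square of read counts over genes, divided by its degrees of freedom, was 19.1 and 15.7 for its pairs and 4.76 for the other SAM pair, where pairs of the other groups gave 5.06 to 7.07. Without it 33 members were again called under SAM, with medians of 1.68 for the sterol enzymes and 0.79 for the fatty acid branch.

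SAM raised most of the sterol genes, adenine raised them by mostly smaller amounts, and the changes under DZ were small. Under SAM 33 of the 36 members were called, all higher than CTL, where 69.3% of all genes were called in either direction and 33.7% were higher. Under adenine 35 were called, 33 higher and 2 lower, where 61.6% of all genes were called, 30.6% higher and 31.0% lower. Under DZ 20 were called, 12 higher and 8 lower, where 45.9% of all genes were called, 22.6% higher and 23.4% lower. Because the list was drawn up with earlier results of these data known, these shares describe the members and were not tested as a group. The median log2 fold change over the 36 was 1.21 under SAM, 0.63 under adenine and 0.062 under DZ, while over all genes it was -0.015, -0.003 and -0.0057.

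**Figure D1:**
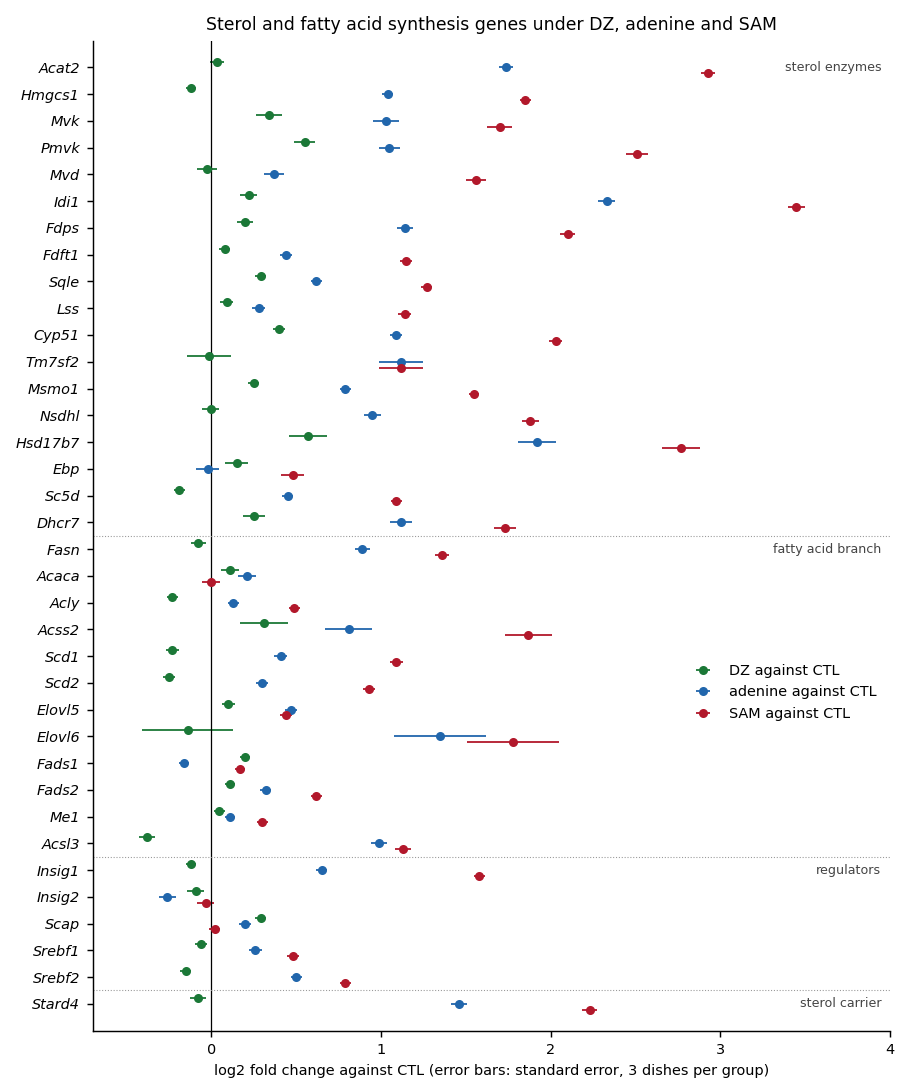
The log2 fold change against CTL (horizontal axis) of each of the 36 genes (vertical axis, in pathway order), with points for DZ, adenine and SAM and bars for the standard error of the fit to 3 dishes per group. Under SAM the values of the 18 sterol enzymes run from 0.48 for Ebp to 3.45 for Idi1, whereas under DZ those of all 36 genes lie between -0.38 and 0.57.

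The log2 changes of the sterol branch exceeded those of the fatty acid branch in each treatment, which is given as a description with no test. Its 18 enzymes had a median log2 fold change of 1.71 under SAM, 1.04 under adenine and 0.18 under DZ, against 0.77, 0.36 and -0.016 for the 12 genes of the fatty acid branch. In the single dishes, the mean log2 difference of the sterol enzymes from the CTL mean was 1.77, 1.79 and 1.83 under SAM, 1.03, 0.96 and 0.93 under adenine, and 0.18, 0.18 and 0.15 under DZ. For the fatty acid branch it was 0.88, 0.87 and 0.79 under SAM, 0.48, 0.49 and 0.48 under adenine, and -0.10, -0.0009 and -0.0039 under DZ. The gap between the branches was thus 0.95 ± 0.0789 under SAM, 0.49 ± 0.0524 under adenine and 0.21 ± 0.0675 under DZ (SD, n = 3), against an SD of 0.013 in CTL. Of the DZ dishes the first had the widest gap, 0.28 against 0.18 and 0.15, and its Elovl6 value was 3.81 against 5.29 and 5.34. Under DZ the gap between the branch medians was 0.19, and without DZ replicate 1 it was 0.10, the fatty acid median then being 0.065. No SAM dish overlapped an adenine dish in either branch. On the linear scale the sterol enzymes summed to 765.8 ± 10.4 CPM in CTL, 848.7 ± 11.7 under DZ, 1384 ± 33.8 under adenine and 2510 ± 36.6 under SAM (SD, n = 3), the last being 3.28 times CTL. The fatty acid branch summed to 2255 ± 28.9, 2124 ± 18.2, 2867 ± 55.5 and 3920 ± 152 CPM in the same order (SD, n = 3), the last being 1.74 times CTL, or 1.63 times when Scd2, its most abundant gene, was left out.

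**Figure D2:**
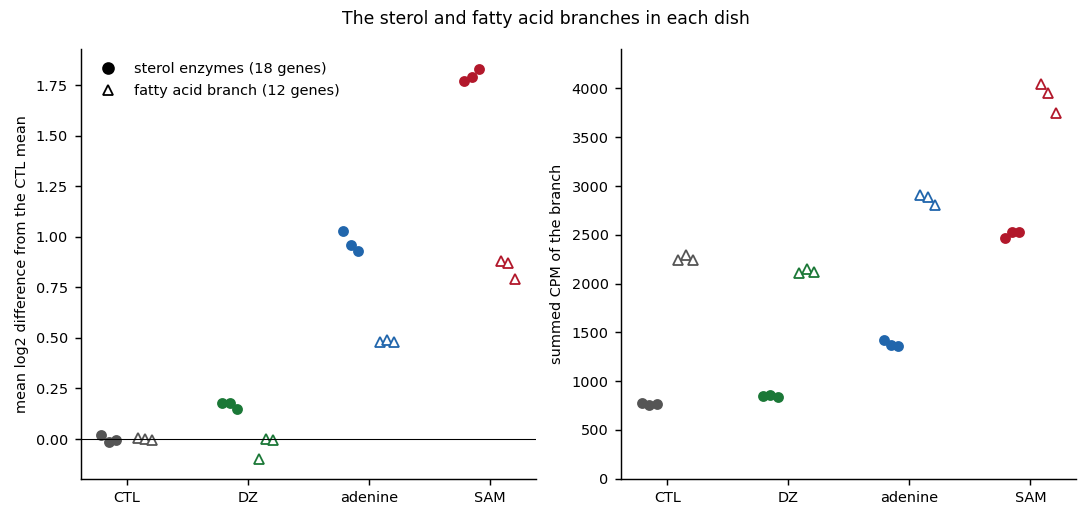
Each point is 1 dish, with filled circles for the 18 sterol enzymes and open triangles for the 12 genes of the fatty acid branch. The left axis gives the mean log2 difference from the CTL mean and the right axis the summed CPM, which for the sterol enzymes rises from 765.8 in CTL to 2510 under SAM while the fatty acid branch goes from 2255 to 3920.

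Within the sterol pathway, the 7 genes of the mevalonate steps, from acetyl-CoA to farnesyl diphosphate, had higher medians than the later steps under adenine and SAM, a description with no test. Their median log2 fold change was 2.10 under SAM, 1.05 under adenine and 0.20 under DZ, and their summed CPM under SAM was 4.7 times CTL, against 2.72 times for the later steps. Under DZ the mean log2 difference was 0.17 in both, and the sums were 1.04 and 1.13 times CTL. All 7 rose under both adenine and SAM, where 30.6% and 33.7% of all genes did. Idi1 (ENSMUSG00000058258, chr13:8935537-8942487), which isomerizes isopentenyl diphosphate, had the largest change of all members, and its log2 CPM was 3.69, 3.61 and 3.62 in CTL, 3.89, 3.81 and 3.88 under DZ, 6.08, 5.93 and 5.90 under adenine, and 7.10, 7.10 and 7.07 under SAM. Its adenine and SAM dishes were far above CTL, with log2 fold changes of 2.33 and 3.45 (SE 0.049 each), and the DZ rise of 0.22 was small but did not overlap CTL. Acat2 (ENSMUSG00000023832, chr17:13161367-13179641), the cytosolic thiolase that makes acetoacetyl-CoA, measured 4.91, 4.93 and 4.89 in CTL, 4.94, 4.99 and 4.91 under DZ, 6.71, 6.66 and 6.60 under adenine, and 7.76, 7.88 and 7.89 under SAM. Here DZ and CTL overlapped and the difference was 0.034 (SE 0.041, adjusted p 0.498), while adenine and SAM raised the gene by 1.74 and 2.93 (SE 0.041 each).

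The other mevalonate genes followed the same order of SAM above adenine above CTL. Hmgcs1, which condenses acetoacetyl-CoA to HMG-CoA, was unlike its neighbours under DZ, with log2 CPM of 6.36, 6.34 and 6.31 in CTL, 6.22, 6.26 and 6.18 under DZ, 7.40, 7.38 and 7.36 under adenine, and 8.19, 8.22 and 8.13 under SAM. All 3 DZ dishes were below CTL, and it fell by 0.12 (SE 0.032, adjusted p 0.00616) while it rose by 1.04 under adenine and 1.85 under SAM. Pmvk, the phosphomevalonate kinase, had the largest DZ rise of these 7, 0.55 (SE 0.063), followed by 1.05 under adenine and 2.51 under SAM. Mvk, the mevalonate kinase, rose by 0.34, 1.03 and 1.70, and Fdps, which makes farnesyl diphosphate, by 0.20, 1.14 and 2.10 under DZ, adenine and SAM. Mvd, which decarboxylates the diphosphate to isopentenyl diphosphate, responded to adenine by only 0.37 but to SAM by 1.56, and its DZ value of -0.026 was not called (adjusted p 0.719).

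From squalene to cholesterol, 11 genes were followed, with median log2 fold changes of 1.27 under SAM, 0.79 under adenine and 0.15 under DZ. All 11 rose under SAM and 10 under adenine, where 33.7% and 30.6% of all genes did. The genes of squalene formation and cyclization had changes near or below that SAM median. Fdft1, the squalene synthase, rose by 0.44 under adenine and 1.15 under SAM, Sqle, the squalene epoxidase, by 0.62 and 1.27, and Lss, the lanosterol synthase, by 0.28 and 1.14. The lanosterol demethylase Cyp51 rose more, by 1.09 and 2.03, and by 0.40 under DZ. Among the enzymes that then remove the remaining pair of methyl groups, Msmo1 rose by 0.79 and 1.55 and Nsdhl by 0.95 and 1.88. Dhcr7, which completes cholesterol from its immediate precursor, rose by 1.12 under adenine and 1.73 under SAM.

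Hsd17b7, Tm7sf2, Ebp and Sc5d marked the extremes of these later steps. Hsd17b7 (ENSMUSG00000026675, chr1:169777093-169796813), a reductase of sterol intermediates, was low in CTL and rose in all 3 treatments, with log2 CPM of 1.98, 1.88 and 1.64 in CTL, 2.48, 2.59 and 2.12 under DZ, 3.81, 3.80 and 3.64 under adenine, and 4.54, 4.67 and 4.59 under SAM. No groups overlapped, and the fold changes were 0.57, 1.92 and 2.77 on the log2 scale (SE 0.11 each). Tm7sf2, a sterol reductase, measured 1.59, 1.56 and 1.66 in CTL, 1.53, 1.62 and 1.62 under DZ, 2.94, 2.77 and 2.46 under adenine, and 2.68, 2.55 and 2.95 under SAM. Adenine and SAM dishes overlapped, the rises being 1.12 each (SE 0.13) and the direct difference 0.0043 with a 95% interval from -0.27 to 0.27. Ebp, the sterol isomerase, measured 4.37, 4.15 and 4.36 in CTL, 4.48, 4.37 and 4.48 under DZ, 4.25, 4.20 and 4.36 under adenine, and 4.77, 4.70 and 4.84 under SAM. It was the single sterol enzyme not called under adenine (-0.021, adjusted p 0.795), with adenine and CTL dishes overlapping, and under SAM it rose by 0.48 (SE 0.068). Sc5d, a late-acting desaturase, measured 5.99, 5.96 and 5.98 in CTL, 5.81, 5.78 and 5.78 under DZ, 6.44, 6.41 and 6.43 under adenine, and 7.07, 7.11 and 7.01 under SAM. Its DZ dishes were all below and its adenine and SAM dishes all above CTL, giving -0.19, 0.45 and 1.09 (SE 0.032 each).

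**Figure D3:**
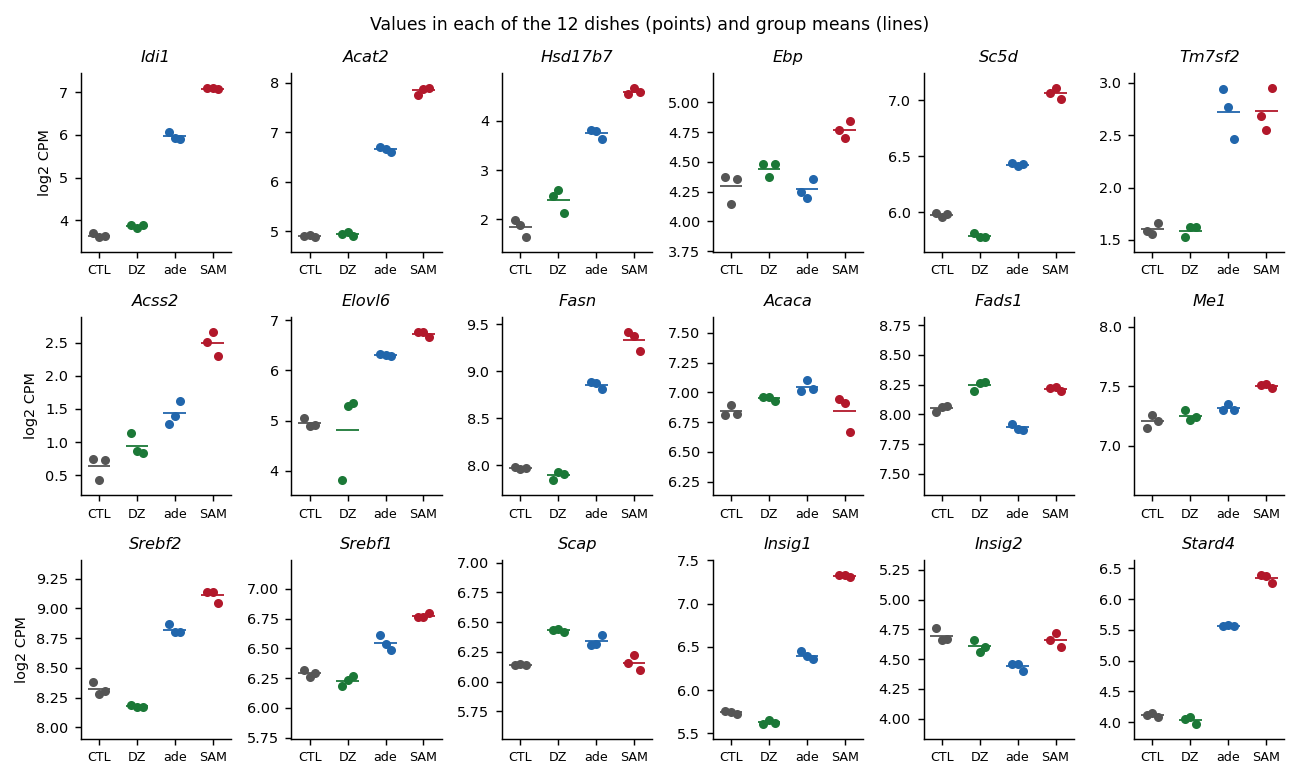
Log2 CPM (vertical axes, scaled for each gene) in each of the 3 dishes of CTL, DZ, adenine (ade) and SAM for 18 members, with lines at the group means. Idi1, Acat2, Insig1 and Stard4 step upward from CTL to adenine to SAM with no overlap, Tm7sf2 is alike under adenine and SAM, and 1 DZ dish of Elovl6 lies at 3.81, apart from the others at 5.29 and 5.34.

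In the fatty acid branch, 11 of 12 genes rose under SAM and 11 under adenine, where 33.7% and 30.6% of all genes did, Acaca being the gene not called under SAM and Fads1 the gene that fell under adenine. Acss2 (ENSMUSG00000027605, chr2:155355679-155428016), which makes acetyl-CoA from acetate, had the largest rise under SAM, and its log2 CPM was 0.74, 0.42 and 0.73 in CTL, 1.13, 0.87 and 0.83 under DZ, 1.28, 1.40 and 1.62 under adenine, and 2.51, 2.67 and 2.30 under SAM. It is a low gene, with 62 to 74 reads per CTL dish, and it rose by 0.81 under adenine and 1.87 under SAM (SE 0.14 each). Under DZ its dishes lay above CTL but the difference of 0.31 was not called (adjusted p 0.0774). Fasn, the fatty acid synthase itself, measured 7.98, 7.96 and 7.97 in CTL, 7.84, 7.93 and 7.91 under DZ, 8.88, 8.87 and 8.81 under adenine, and 9.42, 9.37 and 9.21 under SAM. It rose by 0.89 and 1.36 (SE 0.044) under adenine and SAM, and its DZ value of -0.078 was not called (adjusted p 0.139). Acly, which releases acetyl-CoA from citrate, measured 7.78, 7.84 and 7.80 in CTL, 7.59, 7.60 and 7.55 under DZ, 7.97, 7.90 and 7.93 under adenine, and 8.36, 8.29 and 8.24 under SAM. It fell by 0.23 under DZ and rose by 0.13 and 0.49 under adenine and SAM (SE 0.033).

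Acaca, the acetyl-CoA carboxylase that makes malonyl-CoA, rose under adenine and was not called under SAM. Its log2 CPM was 6.81, 6.89 and 6.82 in CTL, 6.96, 6.96 and 6.93 under DZ, 7.01, 7.10 and 7.03 under adenine, and 6.94, 6.91 and 6.67 under SAM. Adenine dishes were above all CTL dishes by a mean of 0.21 (SE 0.054, adjusted p 0.00298), whereas SAM and CTL dishes overlapped, with a difference of -0.0019 and a 95% interval from -0.12 to 0.11. Without SAM replicate 3, the dish at 6.67, the difference was 0.084 (adjusted p 0.0277), again not called. Me1, the malic enzyme that supplies NADPH, changed little, at 7.15, 7.26 and 7.21 in CTL, 7.30, 7.22 and 7.24 under DZ, 7.30, 7.35 and 7.30 under adenine, and 7.51, 7.52 and 7.49 under SAM. Its rises were 0.11 under adenine (adjusted p 0.00687) and 0.30 under SAM (SE 0.032).

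Elongases and desaturases differed among themselves. Elovl6, which lengthens palmitate, measured 5.05, 4.89 and 4.92 in CTL, 3.81, 5.29 and 5.34 under DZ, 6.32, 6.31 and 6.28 under adenine, and 6.77, 6.76 and 6.66 under SAM. It rose by 1.35 under adenine and 1.78 under SAM (SE 0.27 each), errors that include the first DZ dish, which held 688 reads of the gene. Over all 3 DZ dishes the difference from CTL was -0.14 (adjusted p 0.67), and without DZ replicate 1 it was 0.36 (adjusted p 4.71e-05). Elovl5, an elongase of polyunsaturated fatty acids, rose by 0.47 under adenine and 0.44 under SAM. Scd1 and Scd2, which place the first double bond in saturated fatty acids, went in opposite directions under DZ and SAM. Log2 CPM of Scd1 was 6.52, 6.57 and 6.45 in CTL, 6.29, 6.26 and 6.32 under DZ, 6.94, 6.93 and 6.89 under adenine, and 7.67, 7.60 and 7.54 under SAM. Scd2 measured 9.76, 9.79 and 9.74 in CTL, 9.56, 9.53 and 9.47 under DZ, 10.09, 10.09 and 10.01 under adenine, and 10.74, 10.71 and 10.63 under SAM. In both genes every DZ dish lay below CTL and every adenine and SAM dish above it, and the fold changes for DZ, adenine and SAM were -0.23, 0.41 and 1.09 in Scd1 (SE 0.038) and -0.25, 0.30 and 0.93 in Scd2 (SE 0.036).

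The front-end desaturases of polyunsaturated fatty acids, Fads1 and Fads2, lie near each other on chromosome 19 and differed under adenine. Fads1 measured 8.02, 8.06 and 8.07 in CTL, 8.20, 8.26 and 8.27 under DZ, 7.92, 7.88 and 7.87 under adenine, and 8.22, 8.23 and 8.20 under SAM. Its adenine dishes were all below CTL (fell by 0.16), while its DZ and SAM dishes were all above (0.20 and 0.17, SE 0.028 each), and it was the single member called in opposite directions under adenine and SAM. Fads2 rose by 0.11 under DZ, 0.32 under adenine and 0.62 under SAM (SE 0.031). Acsl3, which activates fatty acids with coenzyme A, measured 4.84, 4.86 and 4.83 in CTL, 4.56, 4.45 and 4.38 under DZ, 5.79, 5.91 and 5.80 under adenine, and 5.95, 5.98 and 5.99 under SAM. The gene had the largest fall of any member under DZ, 0.768 times CTL (log2 -0.38, SE 0.048), and rose by 0.99 and 1.13 under adenine and SAM.

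Among the regulators, Srebf2, Srebf1 and Insig1 rose under both adenine and SAM, whereas Scap and Insig2 were not called under SAM. Srebf2 (ENSMUSG00000022463, chr15:82031382-82093201) measured 8.38, 8.28 and 8.31 in CTL, 8.19, 8.17 and 8.17 under DZ, 8.87, 8.80 and 8.80 under adenine, and 9.14, 9.14 and 9.05 under SAM. It fell by 0.15 under DZ and rose by 0.50 and 0.79 under adenine and SAM (SE 0.033), with no overlap between groups. Srebf1, whose isoforms were not told apart in these gene values, measured 6.32, 6.26 and 6.29 in CTL, 6.18, 6.23 and 6.27 under DZ, 6.61, 6.54 and 6.49 under adenine, and 6.76, 6.76 and 6.80 under SAM. It rose by 0.26 and 0.48 under adenine and SAM (SE 0.036), and its DZ value of -0.063 was not called (adjusted p 0.15).

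Insig1 (ENSMUSG00000045294, chr5:28276315-28283668), itself an SREBP target that restrains the pathway, measured 5.76, 5.75 and 5.73 in CTL, 5.61, 5.65 and 5.62 under DZ, 6.45, 6.39 and 6.36 under adenine, and 7.33, 7.33 and 7.31 under SAM. The SAM dishes lay close together (SD 0.01) and lay 1.58 above CTL (SE 0.031), the adenine dishes lay 0.65 above, and the DZ dishes were lower by 0.12 (adjusted p 0.00471). Insig2, its paralog, measured 4.76, 4.66 and 4.67 in CTL, 4.66, 4.56 and 4.60 under DZ, 4.46, 4.46 and 4.40 under adenine, and 4.66, 4.72 and 4.60 under SAM. The adenine dishes were all below CTL (fell by 0.26, SE 0.051), and the SAM dishes overlapped CTL (-0.034, adjusted p 0.557). Scap, the escort of the SREBPs, measured 6.14, 6.15 and 6.14 in CTL, 6.43, 6.44 and 6.42 under DZ, 6.31, 6.32 and 6.39 under adenine, and 6.16, 6.22 and 6.10 under SAM. It rose by 0.29 under DZ and 0.20 under adenine (SE 0.035), whereas under SAM the difference was 0.019 (adjusted p 0.63). The SAM call depended on the scaling, since with plain read totals the difference was 0.14 and called (adjusted p 0.00168).

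Stard4 (ENSMUSG00000024378, chr18:33332197-33346942), a cytosolic carrier of sterols between membranes, rose under adenine and SAM. It measured 4.11, 4.15 and 4.08 in CTL, 4.05, 4.09 and 3.97 under DZ, 5.57, 5.58 and 5.56 under adenine, and 6.39, 6.37 and 6.27 under SAM. DZ and CTL dishes overlapped (-0.078, adjusted p 0.156), and the gene rose by 1.46 under adenine and 2.23 under SAM (SE 0.045).

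Side by side, 27 of the 36 members stepped upward 2 times, from CTL to adenine and from adenine to SAM, with both steps called, where 8.97% of all genes did so. They were 16 of the 18 sterol enzymes, 7 of the 12 genes of the fatty acid branch, Insig1, Srebf1, Srebf2 and Stard4. In 10 cases members were higher than CTL in all 3 treatments, namely 9 sterol enzymes and Fads2, where 9.15% of all genes were. Another 8 were higher under SAM and lower under DZ, Hmgcs1, Sc5d, Acly, Scd1, Scd2, Acsl3, Insig1 and Srebf2, where 5.41% of all genes were. The treatments share their CTL dishes, so these counts are descriptions.

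SAM was compared with adenine directly, at the same concentration of 1 mM. These fold changes do not use the CTL dishes, but their errors and p-values rest on the spread in all 12 libraries. Of the 36 members 32 were called, 30 higher and 2 lower under SAM, where 42.7% of all genes were called, 20.8% higher and 22.0% lower. The sterol enzymes differed by a median of 0.82 on the log2 scale, with 17 of 18 higher, and the fatty acid branch by 0.34, with 8 higher and 1 lower. The 4 widest differences were in mevalonate genes, Pmvk (1.46, SE 0.063), Acat2 (1.19, SE 0.041), Mvd (1.19, SE 0.058) and Idi1 (1.12, SE 0.049). Hmgcs1 (0.80) and Mvk (0.67), also of these steps, lay below later genes such as Cyp51 (0.94). Acss2 led the fatty acid branch with 1.06 (SE 0.14). Acaca and Scap were lower under SAM than under adenine, with log2 differences of -0.21 (adjusted p 0.00418) and -0.18 (adjusted p 0.000632). The Acaca call was lost in a limma model of only the SAM and adenine groups (adjusted p 0.0169). Insig2 was higher by 0.22 (adjusted p 0.00181). The 4 members not called were Tm7sf2, Elovl5 (-0.035, 95% interval -0.12 to 0.045), Acsl3 (0.14, adjusted p 0.0229) and Elovl6 (0.42, adjusted p 0.192). For Elovl6 the adenine and SAM dishes did not overlap, and in a model of only these groups, without the DZ dishes, the adjusted p was 1.08e-05.

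**Figure D4:**
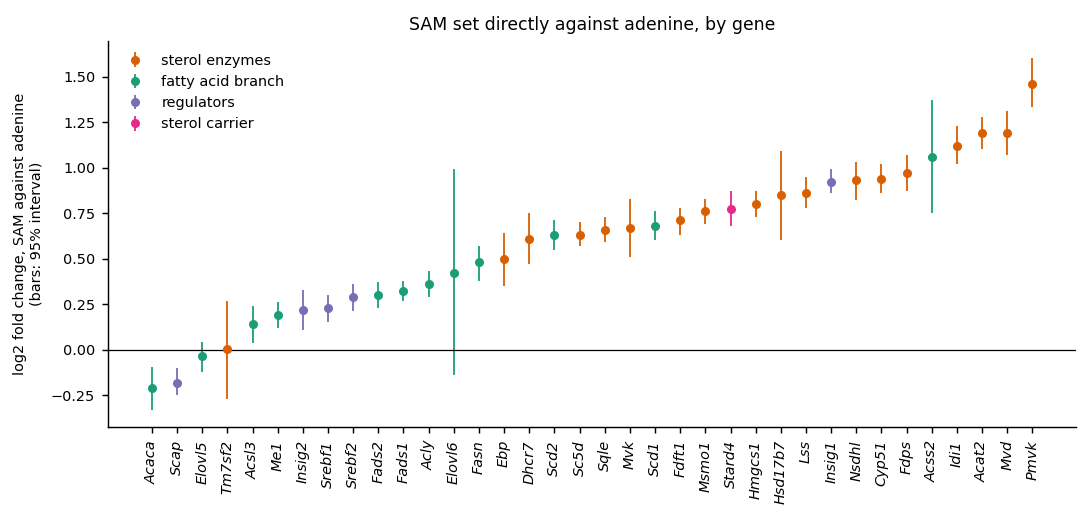
The log2 fold change of SAM against adenine (vertical axis) for each of the 36 genes, in rising order, coloured by branch, with 95% intervals as bars. Pmvk is highest at 1.46, most sterol enzymes lie to the right of the fatty acid genes, and Acaca (-0.21) and Scap (-0.18) are the 2 genes whose intervals lie wholly below 0.

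DZ stood apart from the other treatments. At 10 μM it was given at a lower concentration than adenine or SAM, so direct contrasts with DZ compare the treatments as they were given. Adenine exceeded DZ in 30 members and was lower in 2, Fads1 (-0.35) and Insig2 (-0.16), where 64.3% of all genes were called, 32.2% higher and 32.1% lower. SAM exceeded DZ in 32 members and was lower in 1, Scap (-0.27), where 69.0% of all genes were called, 34.0% higher and 35.0% lower. The 9 sterol enzymes raised by DZ were Mvk, Pmvk, Idi1, Fdps, Sqle, Cyp51, Msmo1, Hsd17b7 and Dhcr7, with Hsd17b7 (0.57), Pmvk (0.55) and Cyp51 (0.40) highest. The members that DZ lowered were Hmgcs1 and Sc5d among the sterol enzymes, 4 genes of the fatty acid branch, Insig1 and Srebf2. Several of these small DZ calls were lost when 1 library or another was left out. That of Fads2 was lost without any of CTL 1, CTL 2, CTL 3, DZ 2 and DZ 3 (adjusted p 0.0174 to 0.0532, log2 fold change 0.083 to 0.11), and those of Hmgcs1 (-0.12 to -0.097), Insig1 (-0.11) and Dhcr7 (0.20 to 0.23) without any of CTL 1, CTL 2, DZ 1 and DZ 3 (adjusted p 0.0156 to 0.034). Fdps lost its call without CTL 1 or DZ 2 (0.18 and 0.17) and Srebf2 without CTL 1 (-0.12, adjusted p 0.0123). With voom on the recovered reads the DZ calls of Idi1 (adjusted p 0.0255) and Mvk (adjusted p 0.0102) were lost too.

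Some small calls outside DZ were as narrow. The adenine call of Me1 was lost without CTL 1, CTL 3 or any adenine library (0.082 to 0.12, adjusted p 0.0115 to 0.0447), that of Acaca without CTL 1, CTL 3 or adenine 2 (0.18 to 0.20), and that of Acly without CTL 1, CTL 3 or adenine 1 (0.11 to 0.12). Between SAM and adenine, Acaca lost its call without adenine 2 or adenine 3 (-0.22 to -0.19) and Insig2 without adenine 3 or SAM 2 (0.19 to 0.20).

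Other genes of the pathway, listed by their roles in sterol sensing, uptake, elongation and lipid assembly, had called changes in both directions. Of 51 listed, 43 were in the table, and under SAM 17 rose and 14 fell, under adenine 17 rose and 16 fell, and under DZ 17 rose and 5 fell, with medians of 0.083, 0.01 and 0.058. Of all genes, 33.7% rose and 35.7% fell under SAM, 30.6% and 31.0% under adenine, and 22.6% and 23.4% under DZ. Tmem97, a sterol-responsive membrane protein, rose by 0.65, 0.89 and 1.18 under DZ, adenine and SAM. Rnf145, a ubiquitin ligase of sterol sensing, rose by 1.37 and 1.40 under adenine and SAM. Erlin1, a membrane protein of the endoplasmic reticulum, went the other way, with 0.18 under DZ, -0.95 under adenine and -1.52 under SAM. The proteases that release SREBPs, Mbtps1 and Mbtps2, had log2 fold changes of -0.31 and -0.71 under SAM, both called. Mbtps1 was higher under DZ (0.22) and adenine (0.24), and Mbtps2 lower (-0.13 and -0.45), all called, with Mbtps2 under DZ close to the threshold (adjusted p 0.00971).

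Levels between genes were compared per length, as CPM per kilobase of exon. The length was the union of all annotated exons of a gene, 19789 bases for Acss2, so levels and ranks depend partly on which isoforms are annotated. In CTL, Scd2 was highest of the 36 at 116, followed by Fads1 at 47.2 and Srebf2 at 34.3, and Acss2 was lowest at 0.0766. Under SAM, Scd2 was again highest at 220 and Acss2 lowest at 0.284. Idi1 went from rank 29 in CTL (3.50 CPM per kilobase) to rank 9 under SAM (38.4), and Acat2 from rank 25 (5.12) to rank 8 (39.2). Acaca went from rank 21 to rank 29 and Scap from rank 23 to rank 30, at levels that scarcely moved. Scd2, Fads1 and Srebf2 differed from each other in CTL by more than the spread between dishes, whereas close ranks such as Nsdhl (6.23) and Acaca (6.23) did not.

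Reads of 6 members could have been shared with near-identical copies in the table, so their values are uncertain to that extent. The copies were Acat3 for Acat2 (97.7% identity over 1477 aligned bases), Idi1-ps1 for Idi1 (100% over 684 bases), Gm3571 for Fdps, Gm6781 for Fdft1, Gm5182 for Acaca, and Gm7049 and Gm7329 for Me1. Acat3 changed by 0.07, 1.89 and 3.07 under DZ, adenine and SAM, and Idi1-ps1 by 0.30, 2.22 and 3.32, close to the member of each pair. Reads on Idi1-ps1 amounted to 26.7% of those on Idi1 in CTL and 24.1% under SAM, and reads on Gm5182 to 23.2% and 22.5% of those on Acaca. The positions of 13 members overlap another gene of the table, 10 of them on the opposite strand, among them Cyp51 with Akap9 and Acss2 with Gss. Another 3 overlap on the same strand, Acsl3 with Utp14b, Srebf2 with Gm49502 and Tm7sf2 with Vps51, where strand cannot separate the reads. The libraries were stranded, but whether the counting used the strand is not given in the sources used here.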

How the data were processed

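Polyadenylated RNA of 12 dishes of PER2::LUC MEFs, 3 in each of 4 groups, was sequenced from stranded libraries. Trimmomatic, HISAT2 (on GRCm39) and StringTie were used by the authors, in that order. The authors left out genes under 1 CPM in any library, normalized with edgeR, and deposited log2 CPM for 12591 genes. Identifiers were matched to GENCODE vM39 for 12575 of them. Because the deposited log2 values are already normalized, each gene was tested with limma 3.58.1 (R 4.3.3), fitting the 12 libraries together without a replicate block and using a trended prior variance. Benjamini-Hochberg adjustment covered every gene of the table, and calls were made at an FDR of 0.01. Whole reads were recovered from the values with a prior count of 2, and 100% lay within 0.05 reads of a whole number (largest distance 0.0024). Reads from StringTie are estimates from coverage. The steps were tested on simulated data.

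Members and gene lists were chosen with earlier results of these data known. Values in all dishes are given for the 5 regulators, Stard4, the 3 highest and 3 lowest members of each branch under SAM, and members called in opposite directions in different treatments. Other pathway genes are named where they are among the 6 with the largest called change under SAM, and Mbtps1 and Mbtps2 were named after their values were seen. Some of those 6 are not reported here. The promoters are those of the 3 sterol enzymes and 2 fatty acid genes with the highest SAM response that had an entry. Close copies share at least 90% identity over 200 bases and at least 50% of the other transcript. Tables and plots were made in Python 3.11.15 (pandas 2.3.3, matplotlib 3.10.9). Alternatives were another FDR of 0.05, no variance trend, a robust prior, a filter at a mean of 3, a pseudocount of 1 CPM, other scalings, voom, a model of only the groups compared, a replicate block and leaving out each library.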

Additional observations from a re-analysis of the deposited data

How the results depend on the processing

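All 96 alternative counts of members called stayed within 1.5 times the reported count, and leaving out each library in turn gave 14 to 19 members for DZ, 32 to 35 for adenine, 33 for SAM and 30 to 32 for SAM against adenine. The replicate numbers do not pair the dishes (r of deviations across genes -0.142 to 0.181), and a paired fit with a replicate block called 19 members for DZ, 35 for adenine, 33 for SAM and 32 for SAM against adenine, losing only Fads2 under DZ (adjusted p 0.0131). The limits are that small log2 differences depend on the scaling, that DZ replicate 1 decides the Elovl6 value, and that 3 dishes against 3 could not reach an exact permutation p below 0.1.

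Some branch medians moved by more than the spread between dishes. For the sterol enzymes under adenine the median was 0.95 with a pseudocount of 1 CPM, 0.98 with median centring, 1.10 with plain read totals and 0.98 to 1.06 when a library was left out. Under SAM it was 1.64 with the pseudocount and 1.84 with read totals, and 0.88 for SAM against adenine with read totals. For the fatty acid branch a filter at a mean of 3 log2 CPM, which removes Acss2, gave -0.078 under DZ, 0.32 under adenine and 0.62 under SAM. Median centring gave 0.31 and 0.73 for adenine and SAM, and read totals gave 0.42, 0.89 and, for SAM against adenine, 0.40. When a library was left out, the DZ median of this branch lay between -0.025 and 0.065, the highest without DZ replicate 1. The difference of the branch medians was 0.28 (DZ) and 1.11 (SAM) with the filter, 0.59 (adenine) and 0.87 (SAM) with the pseudocount, and 0.10 to 0.21 under DZ when a library was left out. With read totals the median of all genes under SAM shifted to 0.11, and the share of calls that were higher went from 48.5% to 61.2% for SAM and from 48.6% to 63.2% for SAM against adenine.

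Single values that changed sign lay near 0 apart from that of Elovl6. With read totals Tm7sf2 (0.012) and Nsdhl (0.021) under DZ, Ebp under adenine (0.041), Acaca (0.12) and Insig2 (0.088) under SAM, and Elovl5 for SAM against adenine (0.025) turned positive. Voom on the recovered reads gave 0.00064 for Acaca under SAM and -0.011 for Tm7sf2 between SAM and adenine, and median centring gave -0.020 for Scap under SAM. Leaving out a library gave -0.068 to 0.032 for Mvd, -0.035 to 0.018 for Tm7sf2, -0.050 to 0.019 for Nsdhl and -0.40 to 0.36 for Elovl6 under DZ, and -0.092 to 0.018 for Ebp under adenine. Under SAM it gave -0.051 to 0.084 for Acaca and -0.012 to 0.051 for Scap, and between SAM and adenine -0.13 to 0.11 for Tm7sf2 and -0.069 to 0.0097 for Elovl5. Of the other single values, 66 lost and 7 gained a call, and 2580 kept direction and call. Scap under SAM gained one with read totals (0.14, adjusted p 0.00168), a scaling under which the median of all genes was 0.11.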
